A study of Mus musculus with 11 samples.

Results

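The 41 genes described here encode enzymes and regulators of the citric acid (TCA) cycle and of fatty acid oxidation in C2C12, an established mouse myoblast line whose cells stop dividing and form myotubes when growth factors are withdrawn. They were chosen by gene symbol, 23 for the TCA cycle and 18 for fatty acid oxidation, from the 16593 symbols of an Illumina MouseRef-8 v2.0 BeadChip. Day 6 cells had spent 6 days in differentiation medium with horse serum, and Day 0 cells were proliferating myoblasts in growth medium with fetal bovine serum. Each day had 5 samples of this one cell line, and 1 of them, Day 0 replicate 5, was measured on 2 arrays that were averaged, making 10 samples from 11 arrays. The medium changed together with the state of the cells, and the contributions of these cannot be told apart. In whole cultures, fewer cells of a type and less RNA per cell cannot be told apart either. The sample labels number the samples of a day as replicates and do not say how far these are independent. Some samples of a day share an unexplained tag, described below. The p-values measure only the spread between the samples of a day.

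The TCA cycle burns the acetyl group of acetyl-CoA to CO2 in the mitochondrial matrix and hands the electrons to NAD+ and FAD. Pyruvate dehydrogenase supplies acetyl-CoA from glucose, while beta-oxidation supplies it from fatty acids, which enter the matrix as carnitine esters and are shortened in repeated rounds of dehydrogenation, hydration, dehydrogenation and thiolysis. Skeletal muscle uses both routes, and oxidative fibres are known for a high content of these enzymes.

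Signals were background-corrected and quantile normalized, and they are given as log2 values. Probes were kept if detected (detection p under 0.05, the chance that a negative control bead reaches its signal) in at least 3 samples of 1 day, and the brightest kept probe represented a gene. Of the 41 genes, 39 had a probe named for them, with 60 probes in all, of which 49 were kept. Hadha and Acsl1 were not analysed here. Sucla2, Pdk2, Cpt1a and Hadh had no kept probe, so that 35 genes were tested, 21 of the TCA cycle and 14 of fatty acid oxidation. The 10 samples were alike in median signal (57.2 to 64.3 at Day 6, against 57.4 to 62.7 at Day 0) and in the share of probes detected (44.7 to 48.7% at Day 6, against 46.0 to 47.4% at Day 0). A gene is called when the limma fit over all 8659 genes tested gives it a Benjamini-Hochberg adjusted p under 0.05. By that measure 21.1% of all genes were higher and 24.2% lower at Day 6, with a median log2 change of -0.03.

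The muscle state of the samples was read first. All 8 tested genes of a muscle list, among them Myog, Ckm and Tnnc2, rose at Day 6, and all 5 tested genes of a cell cycle list fell. Ckm, Ccna2 and Pcna passed the detection filter only through the day on which they were higher, which favoured their direction. The lists were also chosen with earlier results of these data known, so these counts are no independent check. One sample stood apart. Myog, the myogenin transcription factor of early differentiation, had log2 signals of 10.21, 10.48, 9.89, 9.96 and 9.98 in Day 6 replicates 1 to 5, against 4.45, 4.63, 5.67, 5.75 and 8.64 in Day 0 replicates 1 to 5. Day 0 replicate 5 thus carried muscle transcripts well above the other Day 0 samples, and its Tnnc2 signal was 9.55 while the other Day 0 samples reached at most 7.64. This sample was also the lowest of Day 0 for 17 of the 35 tested members, against 35.3% of all genes. It was the highest for 3, against 30.2% of all genes. Relative to the other Day 0 samples its median was -0.26 over the TCA cycle members and -0.14 over the fatty acid oxidation members. The part of this sample in the results was not tested beyond leaving it out.

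TCA cycle genes did not move as a group. Of 21 tested, 4 rose (Pdhb, Pdha1, Idh3g and Idh3a), 3 fell (Suclg2, Idh2 and Idh3b) and 14 were not called. These shares, 19.0% higher and 14.3% lower, were no larger than those of all genes. The median log2 change was 0.10, with a range of 0.055 (without Day 0 replicate 1) to 0.163 (without Day 0 replicate 4) when 1 sample was left out. Without Day 0 replicate 5 it was 0.161. Day 6 and Day 0 samples did not overlap for 6 genes, 4 of them higher at Day 6 (Pdhb, Pdha1, Idh3g and Suclg1) and 2 lower (Idh2 and Suclg2), beside 15.3% and 17.2% of all genes. When arrays were scaled to equal medians instead of quantile normalized, none of the 21 was called higher, the same 3 were called lower and the median was -0.07. With that scaling the calls over all genes also shifted, to 1155 higher and 2068 lower, in place of 1825 and 2098. The median over all genes was then -0.13.

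**Figure D1:**
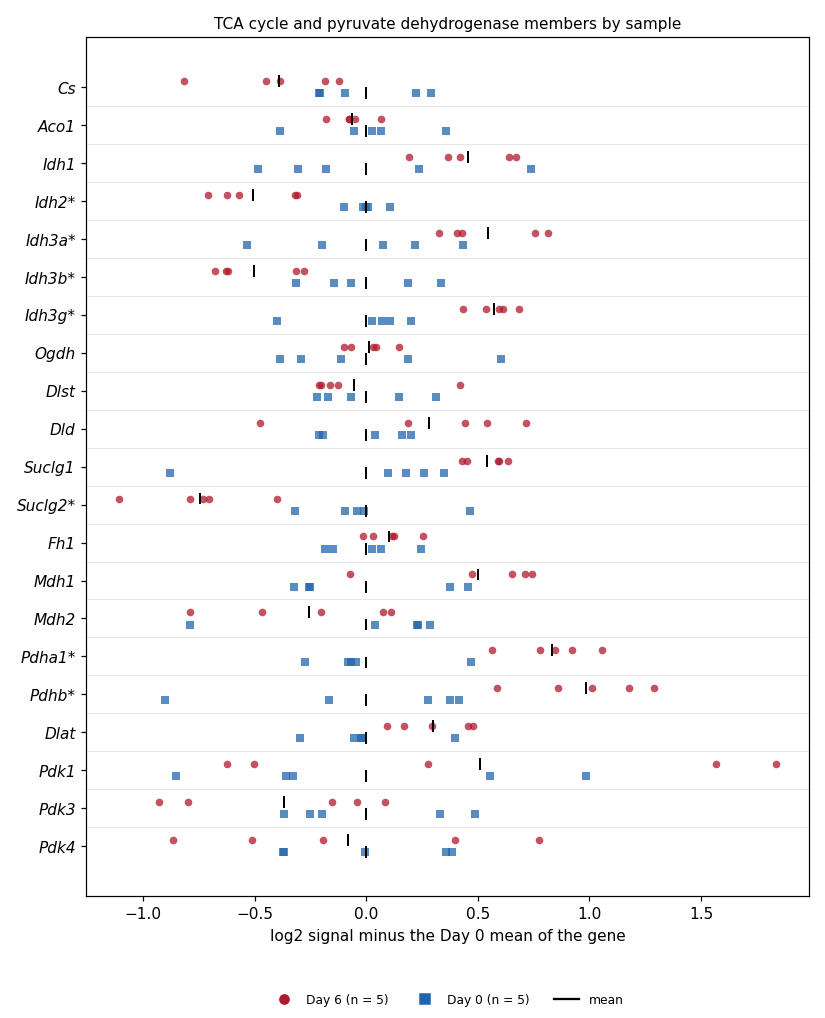
Each tested gene of the TCA cycle and pyruvate dehydrogenase, with the log2 signal of every sample minus the Day 0 mean of that gene on the horizontal axis (Day 6 circles, Day 0 squares, n = 5 each, black bars for means, asterisks for called genes). Pdha1 and Pdhb lie to the right at Day 6 and Suclg2 and Idh2 to the left, while the Day 0 sample far to the left for Suclg1, Pdhb and Idh3g is replicate 5.

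Pyruvate dehydrogenase, the entry point for carbon from glucose, had the largest increases of this group. Pdha1, the catalytic E1 alpha subunit, had log2 signals of 10.79, 11.07, 10.94, 10.58 and 10.86 in Day 6 replicates 1 to 5 and 9.94, 9.93, 10.49, 9.97 and 9.74 in Day 0 replicates 1 to 5. Every Day 6 sample exceeded every Day 0 sample, and the change was 0.83 ± 0.16 (SE, adjusted p = 0.0009), a 1.78-fold higher signal. Pdhb, its E1 beta partner, had signals of 8.71, 8.82, 8.12, 8.39 and 8.54 at Day 6 and 7.81, 7.37, 7.95, 7.91 and 6.63 at Day 0. The days again did not overlap, and the log2 change of 0.98 ± 0.24 (SE, adjusted p = 0.0047) was 0.76 without the low Day 0 replicate 5. A dimmer second probe of Pdhb had a change of 0.26 that was not called. Dlat, the E2 acetyltransferase, changed by 0.30 (adjusted p = 0.13), and Dld, the E3 dihydrolipoamide dehydrogenase shared with the oxoglutarate complex, by 0.28 (adjusted p = 0.29), so neither was called.

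The kinases that phosphorylate and shut off this complex were not called in either direction. Pdk1 had log2 signals of 7.94, 8.20, 6.65, 5.75 and 5.87 in Day 6 replicates 1 to 5 and 6.04, 5.52, 7.36, 6.92 and 6.01 in Day 0 replicates 1 to 5. Its Day 6 samples were widely spread, 2 of them above every Day 0 sample, and the change of 0.51 had a 95% confidence interval from -0.54 to 1.56. Pdk3 had signals of 6.28, 6.40, 6.16, 5.39 and 5.52 at Day 6 and 6.65, 5.95, 6.80, 6.07 and 6.12 at Day 0, a change of -0.37 (interval -0.88 to 0.14). Pdk4, the starvation-responsive kinase of muscle, had signals of 6.13, 6.49, 7.77, 6.80 and 7.39 at Day 6 and 6.99, 7.38, 6.63, 6.62 and 7.36 at Day 0. All its Day 0 samples lay within the Day 6 range and its change was -0.08 (interval -0.70 to 0.54). The interval of Pdk1 holds a rise as large as that of Pdhb, and those of Pdk3 and Pdk4 hold falls as large as that of Idh2. Pdk2 was detected on 1 of 5 Day 6 arrays and on none of the 6 Day 0 arrays. Among genes outside the 41, Pdp1, a phosphatase that reactivates pyruvate dehydrogenase, rose by 1.80 (adjusted p = 1e-05).

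The 3 subunits of the NAD-dependent isocitrate dehydrogenase, which work in 1 complex, went different ways. Idh3g, a regulatory subunit, had log2 signals of 11.35, 11.53, 11.45, 11.60 and 11.51 in Day 6 replicates 1 to 5 and 10.98, 10.94, 11.12, 11.02 and 10.52 in Day 0 replicates 1 to 5. All Day 6 samples were above all Day 0 samples, the change was 0.57 ± 0.14 (SE, adjusted p = 0.0051), and a second probe also rose, by 0.76. Idh3a, the catalytic subunit, had signals of 9.34, 9.29, 8.94, 8.86 and 8.96 at Day 6 and 8.97, 8.75, 8.34, 8.61 and 8.0 at Day 0. Its days overlapped by Day 0 replicate 1, and its change of 0.55 ± 0.19 (SE, adjusted p = 0.030) was no longer called without any 1 of 4 samples (Day 0 replicates 3 and 5, Day 6 replicates 1 and 2), where it was 0.41 to 0.50. Idh3b, the other regulatory subunit, had signals of 8.96, 8.91, 8.96, 9.27 and 9.31 at Day 6 and 9.44, 9.52, 9.92, 9.77 and 9.27 at Day 0. It fell by 0.50 ± 0.16 (SE, adjusted p = 0.020), with overlap only at Day 0 replicate 5, and the call was lost without Day 0 replicate 4 or Day 6 replicate 2 (-0.46 each). The difference Idh3g minus Idh3b within a sample, less its mean over the Day 0 samples, lay between 0.87 and 1.29 at Day 6. At Day 0 it lay between -0.14 and 0.21, a description of a pair chosen after its values were seen.

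Succinyl-CoA ligase, which makes GTP or ATP from succinyl-CoA, was also split by subunit. Suclg1, the alpha subunit common to both forms, had log2 signals of 11.64, 11.64, 11.50, 11.68 and 11.48 in Day 6 replicates 1 to 5 and 11.31, 11.23, 11.40, 11.15 and 10.17 in Day 0 replicates 1 to 5. The days did not overlap, yet the low Day 0 replicate 5 widened the spread and the change of 0.54 ± 0.21 (SE) just missed the call at an adjusted p of 0.0502. Without that sample it was smaller, 0.32, and called (adjusted p = 0.040), and leaving out Day 0 replicate 1 or 3 also gave a call (0.60 and 0.63). A second Suclg1 probe rose by 0.80 (adjusted p = 0.010). Suclg2, the beta subunit of the GTP-forming enzyme, had signals of 6.61, 6.70, 7.0, 6.30 and 6.67 at Day 6 and 7.36, 7.31, 7.39, 7.87 and 7.08 at Day 0. Every Day 6 sample was below every Day 0 sample, and Suclg2 fell by 0.75 ± 0.17 (SE, adjusted p = 0.0033), the lowest change among the 35 members tested. Its second probe, detected on 3 of 5 Day 6 arrays and 4 of 6 Day 0 arrays, had a change of -0.50 that was not called. Sucla2, the beta subunit of the ATP-forming enzyme, was not detected on any array.

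Idh2, the mitochondrial NADP-dependent isocitrate dehydrogenase, had log2 signals of 9.0, 9.25, 9.25, 8.94 and 8.86 in Day 6 replicates 1 to 5, against 9.55, 9.56, 9.57, 9.67 and 9.47 in Day 0 replicates 1 to 5. With the 2 arrays of Day 0 replicate 5 averaged, the 5 Day 0 samples lay within a narrow band above all Day 6 samples. Those 2 arrays gave 9.20 and 9.74, the first of them below Day 6 replicates 2 and 3. Idh2 fell by 0.51 ± 0.13 (SE, adjusted p = 0.0067). Citrate synthase (Cs), the first step of the cycle and a common marker of mitochondrial content, had signals of 8.58, 9.28, 9.01, 9.22 and 8.95 at Day 6 and 9.62, 9.30, 9.69, 9.19 and 9.19 at Day 0. The days overlapped and the change of -0.39 (interval -0.76 to -0.03, adjusted p = 0.076) was not called, though it was without Day 0 replicate 5 (-0.44, adjusted p = 0.046). The 2 arrays of that replicate gave Cs signals of 8.80 and 9.57, the widest gap among the 35 members.

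The remaining TCA cycle genes were not called. Ogdh and Dlst, the E1 and E2 subunits of oxoglutarate dehydrogenase, changed by 0.01 and -0.06, and fumarase (Fh1) by 0.10. The malate dehydrogenases had opposite signs, 0.50 for the cytosolic Mdh1 (adjusted p = 0.066) and -0.25 for the mitochondrial Mdh2 (adjusted p = 0.40). Mdh2 was lowest in replicate 4 of both days, at 7.37 each. Its change without Day 0 replicate 4 alone was -0.45 (adjusted p = 0.083). Mdh1 was detected on 4 of 5 Day 6 arrays and 2 of 6 Day 0 arrays, close to background. The other cytosolic counterparts were Idh1 at 0.46 (adjusted p = 0.10) and Aco1, which also acts as an iron regulatory protein, at -0.06. For Ogdh, Dlst, Fh1 and Aco1 the intervals lay between -0.41 and 0.40, so that a change as large as that of Pdha1 fell outside them.

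**Figure D2:**
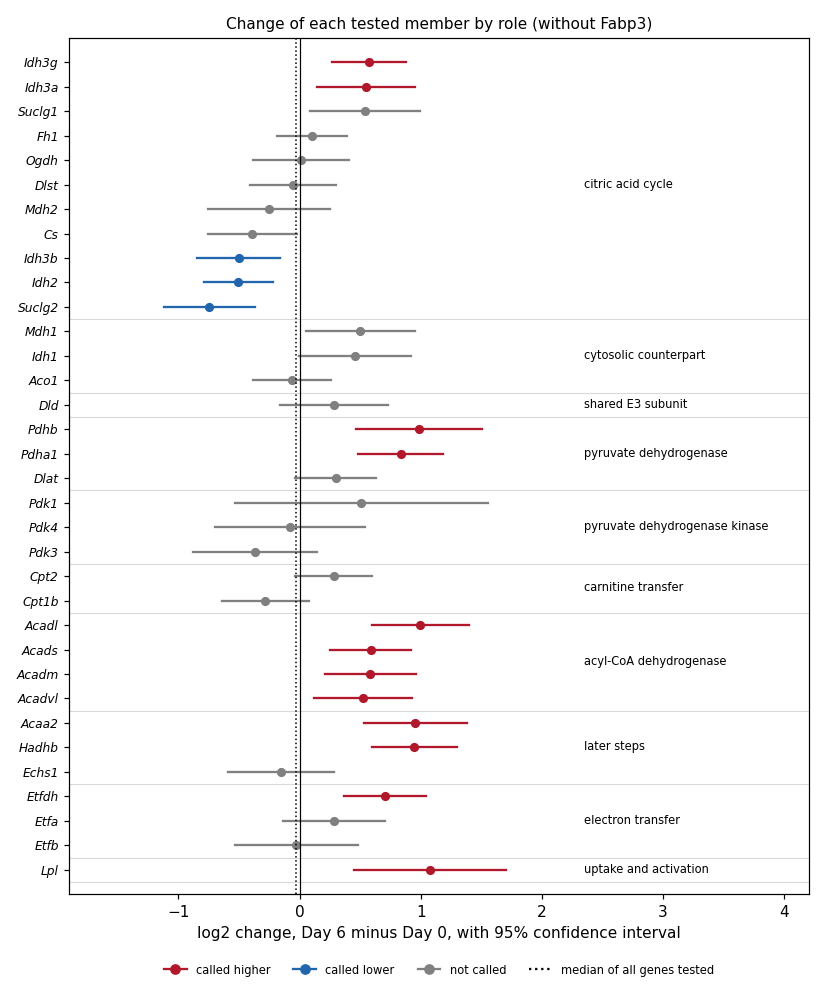
The log2 change of 34 tested members, Day 6 minus Day 0 (points, lines for 95% confidence intervals), grouped by role from top to bottom, with the median of all genes tested at -0.03 (dotted). All 4 acyl-CoA dehydrogenases were called higher, while citric acid cycle subunits lay on both sides of 0; Fabp3, with a change of 4.81, lies beyond the axis and is not drawn.

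Fatty acid oxidation genes were mostly higher at Day 6. Of 14 tested, 9 rose (64.3%, against 21.1% of all genes), none fell at an adjusted p under 0.05 by limma and 5 were not called. In the same fit, none of the 5 had a negative change at an unadjusted p under 0.05, and 1 gene, Cpt1b, was called lower when Day 0 replicate 3 was left out. The median log2 change was 0.58. The days did not overlap for 6 of the 14, all higher at Day 6, beside 15.3% of all genes higher without overlap and 17.2% lower. The genes called included those of uptake, dehydrogenation and thiolysis but neither Cpt1b nor Cpt2, the carnitine palmitoyltransferases tested. When arrays were scaled to equal medians, 3 genes (Fabp3, Acadl and Hadhb) kept the call and the median was 0.41. Of the 14 changes, 13 were lower in value than under quantile normalization. Over all 8659 genes, that scaling called 1155 higher, in place of 1825, and the median was -0.13.

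**Figure D3:**
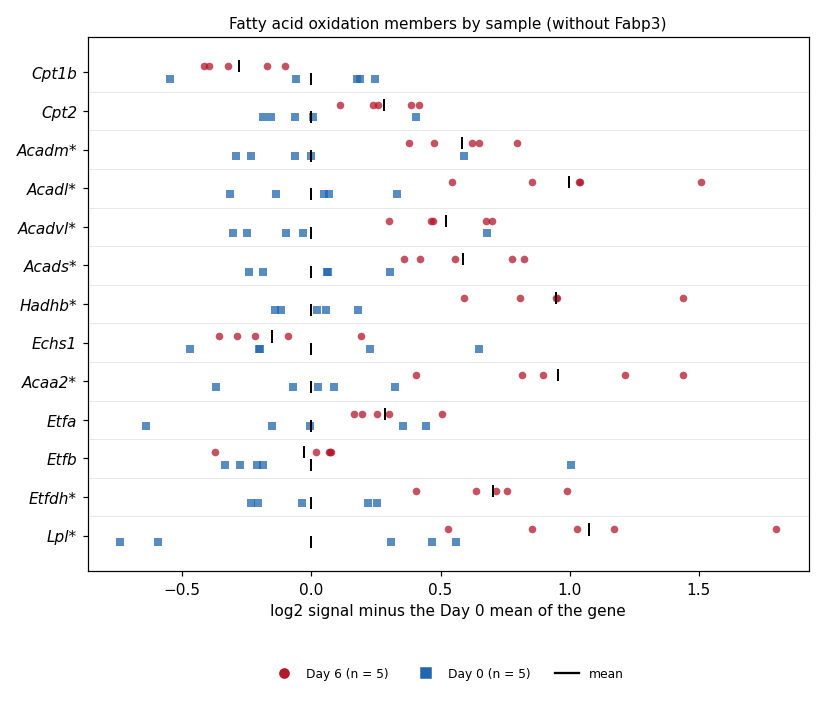
Each tested gene of fatty acid oxidation other than Fabp3, with the log2 signal of every sample minus the Day 0 mean of that gene (Day 6 circles, Day 0 squares, n = 5 each, black bars for means, asterisks for called genes). Acadl, Acads, Hadhb, Acaa2 and Etfdh show no overlap of the days, and the Day 0 sample far to the right for Acadvl, Acadm and Etfb is replicate 3.

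Fabp3, the heart and muscle fatty acid-binding protein that carries fatty acids through the cytosol, had the largest change of all 35 members. Its log2 signals were 9.63, 9.68, 9.86, 9.53 and 10.07 in Day 6 replicates 1 to 5, against 4.64, 4.55, 5.74, 4.79 and 5.00 in Day 0 replicates 1 to 5. All Day 6 arrays were bright, whereas only 3 of 6 Day 0 arrays detected the probe, and the change was 4.81 ± 0.21 (SE, adjusted p = 2.8e-09), or 28.0-fold on the log2 scale with its offset of 16. It was 4.82 without Day 0 replicate 5. Lpl, the lipoprotein lipase that releases fatty acids from circulating triglyceride, had signals of 9.79, 9.17, 8.52, 8.85 and 9.02 at Day 6 and 7.40, 7.26, 8.30, 8.46 and 8.55 at Day 0. The days met between Day 6 replicate 3 and Day 0 replicate 5, and the change of 1.08 ± 0.29 (SE, adjusted p = 0.0081) ranged from 2.46 in samples tagged E1 to 0.22 in those tagged E3.

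Lpl and fatty acid-binding proteins are also made by fat cells, endothelium and macrophages, so markers of these cells were read beside them. Of 9 adipocyte markers with a probe, 2 (Lep and Pparg) were detected in at least 3 samples of a day, and Adipoq, Plin1, Cidec, Retn, Lipe and Fabp4 were undetected on every array. Cebpa was detected on 2 Day 0 arrays and no Day 6 array. The adipocyte list summed to signals between 299 and 358 at Day 6, and between 342 and 450 at Day 0. Pparg, the adipogenic nuclear receptor, fell by 1.19. Of the endothelial list, Pecam1, Cdh5, Emcn and Gpihbp1 were undetected on every array, whereas Kdr was detected on 5 of 5 Day 6 and 5 of 6 Day 0 arrays and Tek on 3 Day 6 arrays and 1 Day 0 array. Of the hepatocyte list, Alb, Apoa1, Ttr and Cps1 were undetected on every array, and Ahsg was detected on 3 Day 6 and 5 Day 0 arrays by 1 of its probes. Mean log2 signals were 5.22 at Day 6 and 5.12 at Day 0 for Kdr, 4.58 and 4.50 for Tek and 4.67 and 4.69 for this Ahsg probe, with overlap of the days for each. Of the macrophage list, Cd14 was detected on all arrays and fell by 1.04, while Ptprc, Itgam and Adgre1 were detected on at most 2 arrays of Day 6 and none of Day 0. Summed signals for the endothelial list were 156 to 175 at Day 6, against 147 to 169 at Day 0, and they were 182 to 219 at Day 6, against 208 to 288 at Day 0, for the macrophage list. The part of such cells in the results was not tested beyond these values.

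The carnitine palmitoyltransferases tested, which act in the transfer of long-chain fatty acids into mitochondria, were not called. Cpt1b, the muscle form of the outer membrane carnitine palmitoyltransferase, had log2 signals of 4.91, 5.06, 5.13, 4.83 and 4.81 in Day 6 replicates 1 to 5 and 5.41, 5.42, 4.68, 5.17 and 5.48 in Day 0 replicates 1 to 5. These were close to background (detected on 5 of 6 Day 0 arrays), Day 0 replicate 3 was the lowest of all 10 samples, and the change was -0.28 (interval -0.64 to 0.08). Without that sample Cpt1b was called lower, at -0.42 (adjusted p = 0.027). Cpt1a, the liver form, was not detected on any array. Cpt2, the inner membrane transferase, changed by 0.28 (adjusted p = 0.14), and was called without Day 0 replicate 3 (0.38, adjusted p = 0.033). Outside the 41 genes, Slc25a20, the carnitine-acylcarnitine translocase that works between these transferases, rose by 0.84 (adjusted p = 0.0020). Crat, the carnitine acetyltransferase, also outside the 41 and named after its values were seen, rose by 0.75 (adjusted p = 0.0034), with overlap of the days.

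All 4 acyl-CoA dehydrogenases, which start each round of beta-oxidation on chains of different length, rose. Acadl, for long chains, had log2 signals of 8.17, 8.66, 9.13, 8.66 and 8.48 in Day 6 replicates 1 to 5 and 7.31, 7.49, 7.67, 7.95 and 7.69 in Day 0 replicates 1 to 5. The days did not overlap, and the change of 0.997 ± 0.19 (SE, adjusted p = 0.0007) was met by 0.98 from a second probe. Acads, for short chains, rose by 0.59 ± 0.15 (adjusted p = 0.0071) without overlap, and its second probe changed by 0.55 without a call (adjusted p = 0.12). Acadm, for medium chains, rose by 0.58 ± 0.18 (adjusted p = 0.015), and by 0.92 on a second probe. Its only overlap came from Day 0 replicate 3 at 11.05, above 2 of the Day 6 samples. Acadvl, for very long chains, rose by 0.52 ± 0.19 (adjusted p = 0.036), with a Day 0 replicate 3 at 9.13 inside the Day 6 range of 8.74 to 9.14. This call was the least firm of the 35 members, as it was lost in 8 of the 10 fits that left out 1 sample (0.45 to 0.54), and the change was 0.69 without Day 0 replicate 3.

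The later steps were split. Hadhb, the thiolase-carrying beta subunit of the mitochondrial trifunctional protein, had log2 signals of 9.15, 9.51, 10.003, 9.51 and 9.37 in Day 6 replicates 1 to 5 and 8.74, 8.62, 8.45, 8.42 and 8.59 in Day 0 replicates 1 to 5. There was no overlap, and it rose by 0.95 ± 0.16 (SE, adjusted p = 0.0004). Acaa2, the thiolase for shorter chains, had signals of 9.73, 9.96, 9.42, 8.93 and 9.33 at Day 6 and 8.55, 8.61, 8.84, 8.45 and 8.15 at Day 0. It too rose without overlap, by 0.96 ± 0.20 (SE, adjusted p = 0.0015), as did 2 of its other 3 kept probes (0.93 and 0.85), while the dimmest had a change of 0.16. Echs1, the short-chain enoyl-CoA hydratase, changed by -0.15 (interval -0.59 to 0.29), and by 0.01 without Day 0 replicate 3. Hadh, the short-chain hydroxyacyl-CoA dehydrogenase, was detected on 1 array of each day by different probes and was not tested.

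Electrons from the acyl-CoA dehydrogenases pass to the electron transfer flavoprotein, made of Etfa and Etfb, and from it to ubiquinone through Etfdh. Etfdh had log2 signals of 8.07, 7.83, 7.79, 7.71 and 7.48 in Day 6 replicates 1 to 5 and 6.87, 7.04, 7.33, 7.29 and 6.84 in Day 0 replicates 1 to 5. It rose without overlap, by 0.70 ± 0.16 (SE, adjusted p = 0.0024). Etfa had signals of 11.88, 11.94, 11.98, 11.85 and 12.19 at Day 6 and 11.53, 11.68, 12.04, 12.13 and 11.04 at Day 0. Its brightest probe overlapped and was not called (0.28, interval -0.13 to 0.70, and 0.12 without Day 0 replicate 5), whereas 2 of its 3 other kept probes were called higher (0.46 and 0.54). Etfb changed by -0.03 (interval -0.54 to 0.48), its Day 0 mean being raised by replicate 3 at 10.44, and by 0.22 without that sample (adjusted p = 0.23).

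**Figure D4:**
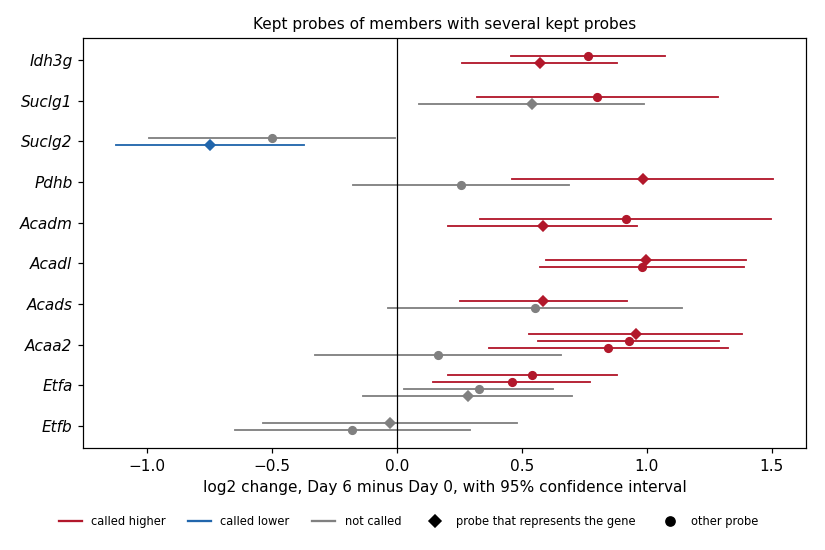
The log2 change, Day 6 minus Day 0, of every kept probe of the 10 tested members with more than 1 kept probe (lines for 95% confidence intervals, diamonds for the probe that represents the gene). No gene had probes called in opposite directions, but Suclg1, Suclg2, Pdhb, Acads, Acaa2 and Etfa each had both called and uncalled probes.

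Over all kept probes of the array, 20.5% were called higher and 23.8% lower. Among the 49 kept probes of the 35 members, agreement between probes of a gene was close for Acadl (0.997 and 0.98) and least close for Pdhb (0.98 and 0.26) and Acaa2 (0.16 to 0.96). In both of these the probe with the smallest change was also the dimmest, with mean signals of 5.38 at Day 6 and 5.12 at Day 0 for Pdhb and of 5.92 and 5.75 for Acaa2.

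The sample descriptions also hold a tag, E1, E2, E3 or E4, that nothing explains, and it was read as a possible batch. E1 holds Day 6 replicate 1 with Day 0 replicates 1 and 2, E2 holds Day 6 replicate 2 with Day 0 replicate 3, E3 holds Day 6 replicates 3 and 4 with Day 0 replicate 4, and E4 holds replicate 5 of both days. Within E1, E2, E3 and E4 the median difference between the days was 0.56, 0.31, 0.44 and 0.76 over the fatty acid oxidation genes. Over the TCA cycle genes it was 0.37, 0.05, 0.15 and 0.04. All 9 called fatty acid oxidation genes and 6 of the 7 called TCA cycle genes kept the sign of their change within every tag. The exception was Idh3b, with 0.04 in E4. The calls come from these same samples, so this agreement was largely fixed in advance and is no further evidence for them. The uncalled Cs, Dld, Suclg1, Mdh1, Dlat and Pdk3 also kept their sign within every tag. Among the 16 called members, the differences varied most for Lpl (2.46, 0.86, 0.22 and 0.47) and Pdhb (1.12, 0.87, 0.35 and 1.91) and least for Acadl (0.77, 0.99, 0.94 and 0.79) and Idh2 (-0.56, -0.32, -0.58 and -0.61). With E1 to E4 as a block, 6 TCA cycle genes were called higher and 3 lower, as were 9 and 0 of the fatty acid oxidation genes.

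**Figure D5:**
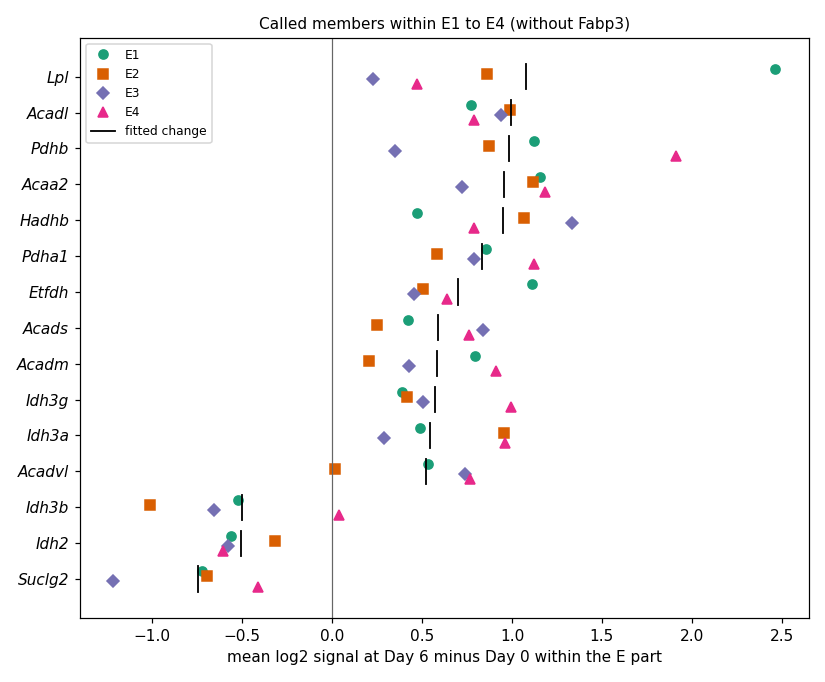
For the 15 called members other than Fabp3, the mean log2 signal at Day 6 minus that at Day 0 within each of the tags E1 to E4 (colored symbols), with the fitted change as a black bar. The symbols of a gene lie on the side of 0 of its bar in every case except E4 of Idh3b at 0.04.

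Other genes of both pathways were read from lists beside the 41. Of 25 further TCA cycle genes, including succinate dehydrogenase, shuttles and anaplerotic enzymes, 15 were tested. Of these, 2 rose and 2 fell (13.3% each, against 21.1% and 24.2% of all genes), and the median change was 0.03. Besides Pdp1, Slc25a12, the aspartate-glutamate carrier of the malate-aspartate shuttle, rose by 0.91. Me2, the mitochondrial malic enzyme, fell by 1.06, and Acly, which cleaves exported citrate in the cytosol, by 0.44, a call that was lost without Day 0 replicate 1 or Day 6 replicate 4 (-0.40 and -0.41). Succinate dehydrogenase was not called in its 3 tested subunits, with changes of -0.11 for Sdhb, 0.23 for Sdhc and -0.32 for Sdhd.

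Of 36 further genes of fatty acid use, 25 were tested. Of these, 12 rose (48.0%, against 21.1% of all genes), 2 fell (8%, against 24.2%) and the median change was 0.45. The acyl-CoA synthetases, which activate fatty acids, went different ways. Acsl6 had log2 signals of 10.34, 10.72, 10.07, 10.22 and 10.34 in Day 6 replicates 1 to 5 and 6.21, 6.08, 6.82, 5.91 and 7.36 in Day 0 replicates 1 to 5, a rise of 3.86. Acsl3 rose by 2.14 and Acsl4 by 0.50, whereas Acsl5 fell by 1.49, with 10.28, 9.99, 10.24, 10.02 and 10.07 at Day 6 and 11.80, 11.91, 11.40, 11.68 and 11.27 at Day 0. None of these 4 overlapped between the days, and Acsl4 was named after its values were seen. Mlycd, which degrades malonyl-CoA, the inhibitor of Cpt1, rose by 1.81, and Acot2, a mitochondrial acyl-CoA thioesterase, by 1.17. Fabp5, a fatty acid-binding protein of skin and macrophages, was undetected on all Day 6 arrays and was at least 1.7-fold lower at Day 6. It passed the detection filter only through Day 0, which favoured its direction. Among the 12 that rose, named after their values were seen, Ivd (0.91), Acadsb (0.97) and Acad8 (0.56) are known mainly for the breakdown of branched-chain amino acids.

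The promoters of the members were searched for letters of factors known for mitochondrial or muscle genes, in RefSeq windows of 250 bases before to 50 after each start (GRCm38.p6, both strands). These windows were given for 37 members, 46 promoters in all. The letters of the estrogen-related receptor site, TNAAGGTCA, were in none of the 46 and in 1.28% of all 32851 promoters. The E-box bound by muscle and many other factors, CANNTG, was in 71.7% of the 46 and 72.3% of all promoters. By pathway it was in 26 of 30 promoters of TCA cycle genes (86.7%) and 7 of 16 of fatty acid oxidation genes (43.8%), where a gene can have several promoters. The core of the palindromic site of NRF1, a regulator of respiratory genes, CGCANGCG, was in 10 of the 46 (21.7%, against 8.21% of all), and in 4 (8.7%, against 4.6%) when the palindrome was lengthened by 1 base at each end. The 9 genes with the core were Pdha1, Pdhb, Idh3g, Acadm and Etfdh, which rose, Ogdh, Dld and Etfb, which were not called, and Sucla2, which was not detected. For 7 of them 30 bases are shown 5' to 3' on the strand of the gene, with the core in capitals, to set the same letters beside different changes. In Idh3g the core is on the opposite strand, so that its capitals, CGCGTGCG, are the reverse complement of a match.
Pdha1: ccactttcccaCGCAGGCGccctgggacac
Pdhb: tgggcggggctCGCAGGCGtcgaaactagc
Idh3g: gtgtgactgtgCGCGTGCGtaatgctagcg
Acadm: cgggagcaggaCGCATGCGcagagggcctt
Etfdh: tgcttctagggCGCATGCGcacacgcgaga
Ogdh: taggtgttgtgCGCATGCGtaactcaactt
Etfb: gtgttgcggcgCGCAGGCGcagagacagat
These stretches lie at chrX:160138582-160138611 (Pdha1, minus strand), chr14:8173178-8173207 (Pdhb, minus), chrX:73786950-73786979 (Idh3g, minus), chr3:153944784-153944813 (Acadm, minus), chr3:79628876-79628905 (Etfdh, minus), chr11:6292533-6292562 (Ogdh, plus) and chr7:43444051-43444080 (Etfb, plus). The core begins at -170 from the start in Pdha1, -204 in Pdhb, -71 in Idh3g, -159 in Acadm, -127 in Etfdh and -10 in Etfb, and at -35 or -14 from 2 annotated starts in Ogdh. A match of letters is a description and not a binding site.

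Further stretches belong to fatty acid oxidation genes that rose without overlap. The 30 bases around the E-box letters of Fabp3, which begin at -45, lie at chr4:130308681-130308710 (plus strand, E-box in capitals). Hadhb and Hadha, the beta and alpha subunits of the trifunctional protein, start 273 bases apart in opposite directions, and the 228 bases that their windows share lie at chr5:30155003-30155230 (strand of Hadhb). They are shown because this array gave a value for Hadhb and none used here for Hadha.
Fabp3: ggccactttcatCATGTGatgcgagggcta
Hadhb and Hadha: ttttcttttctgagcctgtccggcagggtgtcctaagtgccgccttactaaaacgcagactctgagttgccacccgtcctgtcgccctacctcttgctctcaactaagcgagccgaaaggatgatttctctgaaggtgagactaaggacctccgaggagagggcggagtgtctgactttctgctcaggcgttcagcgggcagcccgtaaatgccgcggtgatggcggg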

How the data were processed

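The authors labelled total RNA, hybridized it to MouseRef-8 v2.0 BeadChips and extracted signals with GenomeStudio 2011.1. The deposited intensity values are average probe signals, neither background-subtracted nor normalized between arrays (lowest value 34), and the deposited detection p-value of each probe comes from negative control beads. A second deposited table holds a score per probe, the Z-score of its log signal within an array, which was used as an alternative only; Z-scores recomputed from the signals lay within 0.005 of it. The number of columns left unmapped was 0. Array probes carried 1 gene symbol in 23978 cases and none in 1719. For an array the number of samples limits the precision.

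Signals were processed with neqc (offset 16, negative controls inferred from the detection p) in limma 3.58.1 (R 4.3.3, with the data.table package, version 1.17.8), and the 2 arrays of Day 0 replicate 5 were averaged. Of 25697 probes, 12753 passed the detection filter. Day 6 was compared with Day 0 by lmFit and eBayes without covariates over 8659 genes, with Benjamini-Hochberg adjustment over all of them, and a separate fit covered all kept probes. A log2 change is Day 6 minus Day 0 and includes the offset, which understates changes of dim probes. Against a day without detection on any array, the fold is given as a lower bound set by the dimmest detected signal. Plots and promoter searches used Python 3.11.15 with matplotlib 3.10.9. The fit was tested on simulated data.

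The 41 members and all lists were chosen with earlier results of these data known. By rule, all members are named. Values in every sample are given for up to 6 called members per subgroup with the largest change, for the pyruvate dehydrogenase kinases and Cpt1 forms tested and for Cs. Of each further list, up to 4 called genes per direction are named. Sample values of Idh3b, Suclg1, Etfa, Acsl6 and Acsl5, and Slc25a20 and the succinate dehydrogenase subunits, were added after their values were seen. Alternatives varied the background correction, the scaling of arrays, the use of Z-scores, the detection filter, the array used for Day 0 replicate 5, blocks (E1 to E4, or the replicate number), the variance model, the choice of probe, and the samples, each left out in turn. The same alternatives for the further lists were added after seeing the data. Protein and RT-qPCR data of the study were not used here.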

Additional observations from a re-analysis of the deposited data

Results flagged for a closer look

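In each day, the sample farthest from the others was compared with Dixon's 95% limit for each of the 35 tested members, and 7 of 70 groups passed it. Chance passes about 1 in 20 groups. In Day 0, replicate 5 was low for Idh3g (10.515, the nearest being 10.943) and Suclg1 (10.171, nearest 11.15), and replicate 3 was high for Acadvl (9.1252, nearest 8.4129) and Etfb (10.441, nearest 9.2464). Mdh2 was low in Day 0 replicate 4 (7.3671, nearest 8.1943). In Day 6, Dlst was high in replicate 2 (9.8966, nearest 9.3508) and Etfb was low in replicate 3 (9.0617, nearest 9.4533). All values are log2 signals, and their causes were not tested.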

How the results depend on the processing

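With 5 samples a day, 16 of 35 members were called, and 5 of these 16 (Idh2, Suclg2, Acadl, Hadhb and Fabp3) kept their call and direction under each of the 23 alternatives that could be run for them. Scaling arrays to equal medians had the widest effect. It left 0 TCA cycle genes called higher with a median of -0.068, and 3 fatty acid oxidation genes called higher with a median of 0.41, and it called 4 of the further fatty acid genes lower in place of 2. Detection in all samples left 1 of these, with Fabp5 no longer tested. Over the fits that left out 1 sample, the fatty acid oxidation genes called lower numbered 0 to 1 and the further TCA cycle genes called lower 1 to 3. The call of Idh3a was lost in 7 alternatives, that of Acadvl in 12, those of Idh3b and Acads in 2 each, and 7 others only with equal medians. Suclg1 gained a call in 13 alternatives, Mdh1 in 6, Cs in 3, and Idh1, Dld, Cpt1b, Cpt2 and Etfa in 1 each.

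Same-numbered samples of the days correlated at -0.01, 0.00, -0.24, -0.13 and 0.19 in their deviations from the day means. These values show no strong shared deviation and cannot settle whether the samples were paired. In the fit with the replicate block, 6 TCA cycle genes were called higher and 3 lower, and 9 fatty acid oxidation genes higher and 0 lower.

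Signs turned for 7 members, none of them called. Over the fits that left out 1 sample, the change ran between -0.16 and 0.026 for Aco1, -0.086 and 0.16 for Ogdh, -0.18 and 0.022 for Dlst, -0.29 and 0.12 for Pdk4, -0.27 and 0.0099 for Echs1 and -0.11 and 0.22 for Etfb. Ogdh was -0.19 with equal medians, -0.039 as a Z-score, -0.012 with the repeat array of Day 0 replicate 5 alone and -0.033 with the E1 to E4 block. Fh1 was -0.068 with equal medians, and Dlst was 0.020 without both E4 samples. The causes were not tested.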
